A study of Mus musculus with 5 samples.

Results

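The genes described are the cation-chloride cotransporters and the kinases that set their activity: Slc12a2 (NKCC1), Slc12a4 (KCC1), Slc12a5 (KCC2), Slc12a7 (KCC4), Slc12a9, Wnk1, Stk39 (SPAK) and Oxsr1 (OSR1). They were chosen by symbol, with earlier results of these data known. They are 8 of the 55471 genes in the count table, each matched to a single Ensembl identifier, and all 8 passed the filter on low counts. The data are 5 polyadenylated RNA libraries of spinal cord, each from C57BL/6J males that were 3 months old and at rest: 3 of wild type (WT, Lhx1os +/+) and 2 of knockout (KO, Lhx1os -/-) mice. The knockout was made in fertilised eggs with Cas9 and 1 guide against the second exon of the long non-coding RNA gene Lhx1os, where a synthetic polyadenylation signal followed by MAZ elements that destabilise the polymerase was inserted, with no promoter or recombinase that would limit it to a cell type. The labels name neither the founders nor the litters of the mice.

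Cation-chloride cotransporters move chloride together with sodium or potassium across the plasma membrane. NKCC1 loads cells with chloride, whereas KCC2, which is made almost only by neurons, extrudes it, and the balance between them sets whether GABA and glycine receptor channels hyperpolarise or depolarise a neuron. In the spinal cord low chloride in motor neurons and dorsal horn neurons underlies postsynaptic inhibition, and loss of KCC2 is known from spasticity and neuropathic pain models. WNK kinases sense chloride and activate SPAK and OSR1, which phosphorylate both branches of the family, turning NKCC1 on and the KCCs off. That control acts on protein, which was not measured here.

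The count of Slc12a5 adds transcripts from 2 start sites, and their upstream sequences are shown because the deposited gene-level values cannot separate them. The upstream site gives the isoform KCC2a and the downstream site KCC2b, the main form of the adult nervous system. Both windows below are the 250 bases before a RefSeq start on the plus strand of chromosome 2 (GRCm38.p6), written 5′ to 3′, and capitals mark the E-box CACGTG, a motif known to bind the factors USF1 and USF2. The windows end at starts 7.14 kb apart, at chr2:164960596-164960845 for KCC2a and chr2:164967738-164967987 for KCC2b.
KCC2a window: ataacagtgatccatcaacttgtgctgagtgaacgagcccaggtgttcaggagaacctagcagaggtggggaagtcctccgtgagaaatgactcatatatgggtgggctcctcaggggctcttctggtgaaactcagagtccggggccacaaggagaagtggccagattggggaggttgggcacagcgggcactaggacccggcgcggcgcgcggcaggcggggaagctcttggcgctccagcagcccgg
KCC2b window: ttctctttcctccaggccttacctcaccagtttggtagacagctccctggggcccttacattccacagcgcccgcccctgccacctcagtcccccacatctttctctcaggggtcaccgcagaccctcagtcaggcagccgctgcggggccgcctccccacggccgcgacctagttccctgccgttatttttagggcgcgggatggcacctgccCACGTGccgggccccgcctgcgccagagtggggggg
The E-box, which reads the same on both strands, lay 36 to 31 bases before the KCC2b start and was not found in the KCC2a window. Among all 32851 RefSeq windows of this length, 6.02% held it. Windows were listed for 7 of the 8 genes, Slc12a2 being the exception. The E-box also stood in 1 of the 2 Slc12a7 windows and in the Slc12a9 window, and in none of those of Slc12a4, Wnk1, Stk39 and Oxsr1. A match is a run of letters, not a bound site, and gene-level counts do not bear on it.

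Libraries held 15973063 to 19437533 gene counts. Levels are given as CPM, counts per 1000000 counts of the library, with the library totals scaled by edgeR's TMM factors. Lhx1os, the targeted gene, had 51 to 66 counts in WT and 11 and 13 in KO, so the libraries matched their labels. Its log2 fold change was −2.13, yet it did not itself pass over all genes (edgeR, adjusted p = 0.0589). Across 16052 tested genes edgeR's quasi-likelihood test called 3 at an adjusted p under 0.05, which is 0.0187%. Markers of neurons, oligodendrocytes, astrocytes and microglia had counts in every library, as spinal cord requires. Libraries differed in markers of cell types or cord level. WT replicate 2 was high in markers of sensory ganglion neurons, with the 6 markers summing to 40.8 CPM against 3.13 to 3.75 CPM in the other libraries, and its Scn10a at 15.6 CPM against at most 0.123 CPM. KO replicate 2 was high in genes of caudal cord, with the 6 lumbosacral Hox genes at 59.8 CPM. WT replicate 3 came next at 27.7 CPM, and the remaining libraries had 6.56 to 9.10 CPM. KO replicate 1 was high in markers of skeletal muscle and endothelium. Its 5 muscle markers summed to 11.7 CPM, with KO replicate 2 at 4.50 CPM and WT at 2.28 to 4.19 CPM, so these groups did not overlap. Its 7 endothelial markers summed to 371 CPM against 217 to 304 CPM. WT replicate 1 was lowest in the 7 meningeal fibroblast markers, at 193 CPM against 228 to 418 CPM. It was also lowest in the 6 Schwann cell markers, at 202 CPM against 242 to 416 CPM. The part of these markers in the results was not tested.

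None of the 8 genes passed edgeR's test of KO against WT over all genes. Their adjusted p-values ran from 0.651 to 0.987, 4 had positive and 4 negative log2 fold changes, and the median log2 fold change was −0.0030, against 0.0044 over all tested genes. The count at an unadjusted p under 0.05 was 2, Slc12a2 and Slc12a9, where 7.57% of all tested genes reached that level. DESeq2 called 0 of the 8 (0.265% of its 15118 genes with an adjusted p were called). The CPM of the groups did not overlap for the same 2 genes, Slc12a2 on the lower and Slc12a9 on the higher side, and 24.9% of all tested genes showed such a separation. Differences of this size could be missed here. In simulated counts of the same depth and groups, edgeR recovered 10% of genes changed by 1.25-fold and 50% of those changed by 1.5-fold. The changed genes were drawn at random from all tested genes, so these shares are not those of the 8 genes. The simulation had 136 calls against 3 in the data, so a gene could pass in it at a larger unadjusted p.

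**Figure D1:**
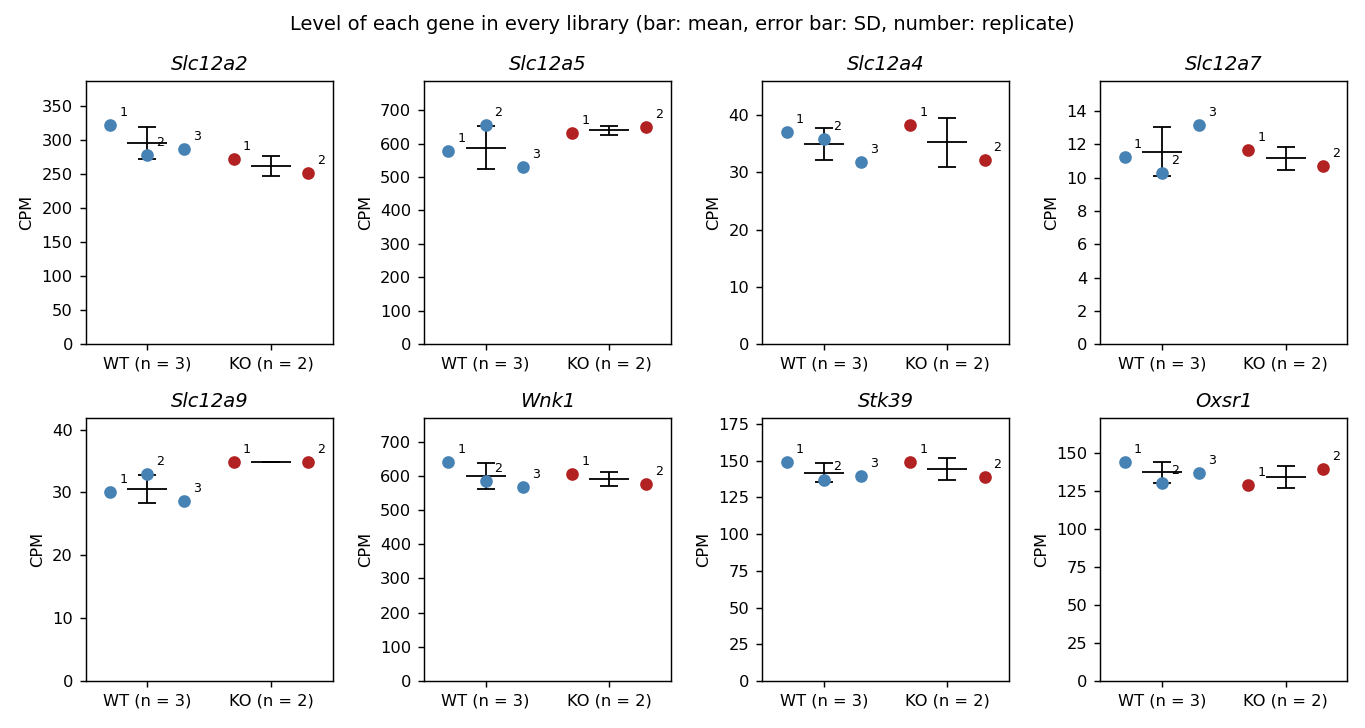
Level of each of the 8 genes in CPM (vertical axes, each from 0) in the 3 WT and 2 KO libraries; points are libraries with their replicate number, the horizontal bar is the mean and the error bar the SD. Slc12a2 is at 279 to 323 CPM in WT and at 252 and 273 CPM in KO, Slc12a9 lies higher in both KO libraries, and the other 6 genes overlap.

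The order of levels was compared per kilobase (kb) of exon, since longer transcripts give more reads. Slc12a5 led in every library, at 79.0 ± 8.47 CPM per kb for WT (SD, n = 3), 85.9 ± 1.79 CPM per kb for KO (SD, n = 2). Its WT level was 2.76 times that of Stk39, the next gene, and the 2 genes' ranges over the 5 libraries did not meet.
Stk39 (28.6 CPM per kb in WT), Slc12a2 (27.1), Wnk1 (26.2) and Oxsr1 (25.7) followed at nearly the same level per kb. Each overlapped its neighbour in this order, so their ranks are not resolved. The remaining genes were well separated. Slc12a4 stood at 8.16 ± 0.641 CPM per kb in WT, Slc12a9 at 6.08 ± 0.451 and Slc12a7 at 0.913 ± 0.117, with no overlap between neighbours. Among the potassium-chloride cotransporters of the set, the WT level of the neuronal KCC2 was thus the highest and that of KCC4 the lowest. Lengths were unions of all annotated exons, from 4.28 kb for Slc12a4 to 22.8 kb for Wnk1, and a gene whose cord transcripts lack some of these exons is placed too low.

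**Figure D2:**
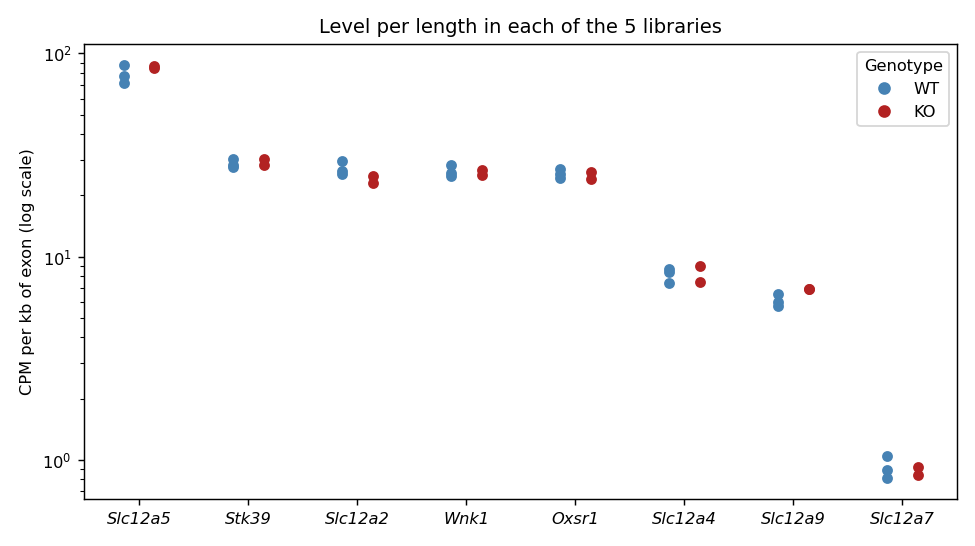
Level of each gene in CPM per kb of exon (vertical log axis) in each library, with WT points at the left and KO points at the right of each gene. Slc12a5 lies above all others at 71.3 to 88.1 CPM per kb, Stk39, Slc12a2, Wnk1 and Oxsr1 share a band of 23.0 to 30.2, and Slc12a7 is near 1.

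Slc12a2 encodes NKCC1, the sodium-potassium-chloride cotransporter that brings chloride into cells. In the cord it is expressed in glia, oligodendrocyte precursors and vessels as well as neurons. In GRCm38 the gene (ENSMUSG00000024597) spans 57878678 to 57946821 of chromosome 18, plus strand. The 3 WT libraries gave 322.7, 278.7 and 287.4 CPM, the 2 KO libraries 272.8 and 251.5 CPM. Both KO libraries lay below all 3 WT libraries, by little: KO replicate 1 was under WT replicate 2 by less than the spread within WT. WT averaged 296.2 ± 23.3 CPM (SD, n = 3), whereas KO averaged 262.2 ± 15.04 CPM (SD, n = 2), a mean 11.5% lower. This was a log2 fold change of −0.18 (SE 0.07; 95% interval −0.34 to −0.01) and did not pass over all genes (edgeR, adjusted p = 0.651; DESeq2, adjusted p = 1.0). It stood at −0.11 without WT replicate 1, the highest library, at −0.22 without WT replicate 2 and at −0.24 and −0.12 without KO replicates 1 and 2.

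In whole tissue, fewer cells of a type and less RNA per cell cannot be told apart. The summed level of 7 oligodendrocyte precursor markers was 567 to 572 CPM in WT and 503 to 519 CPM in KO, without overlap, and 5 of the 7 had negative log2 fold changes. Their part in the Slc12a2 difference was not tested. The sums for 10 oligodendrocyte markers (31117 to 36593 CPM in WT, 32295 to 32601 in KO), 8 astrocyte markers (6998 to 7757 in WT, 7254 to 7480 in KO) and 7 endothelial markers (219 to 304 in WT, 217 to 371 in KO) overlapped. The choroid plexus, whose epithelium is rich in NKCC1, was close to absent: its 5 markers summed to 6.75 to 10.2 CPM, with Ttr at 0.862 CPM or less and Otx2 at 0 counts in 4 libraries.

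Slc12a5 encodes KCC2, the potassium-chloride cotransporter that keeps chloride low in mature neurons. The gene (ENSMUSG00000017740) spans 164960802 to 164999731 of chromosome 2, plus strand. The WT libraries gave 577.5, 655.7 and 531.0 CPM, the KO libraries 630.6 and 649.5 CPM. The KO libraries lay inside the WT range, below WT replicate 2 and above the other two. WT averaged 588.1 ± 63.0 CPM (SD, n = 3), KO 640.0 ± 13.3 CPM (SD, n = 2). The log2 fold change was 0.12 (SE 0.08; 95% interval −0.06 to 0.31; edgeR, adjusted p = 0.757), so that a KO level between 0.958 and 1.24 times that of WT was compatible with these libraries. Without WT replicate 2, the library high in sensory ganglion markers, it was 0.21 (adjusted p = 0.353), and without WT replicate 3 it was 0.05. Without KO replicate 2, the library high in caudal Hox genes, it was 0.10.

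The 12 neuron markers moved in the same direction: their sum was 9045 to 9875 CPM in WT and 10104 and 10194 CPM in KO, without overlap, and 10 of the 12 had positive log2 fold changes, of which 0 passed. Their part in the Slc12a5 value was not tested, but the ratio of Slc12a5 to these markers was measured within each library. It was 1.251, 1.37 and 1.2 in WT, 1.31 and 1.33 in KO, with the geometric mean of the markers as the base. The KO ratios lay inside the WT range, and the log2 difference of 0.05 was smaller than the SD within WT of 0.10 (exact two-sided permutation test, p = 0.6). Without WT replicate 3, the lowest, the difference was 0.012, and without WT replicate 2, the highest, it was 0.11.

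Slc12a4 encodes KCC1, a widely expressed potassium-chloride cotransporter of cell volume control (ENSMUSG00000017765, minus strand of chromosome 8, 105943590 to 105966097). WT libraries held 37.1, 35.9 and 31.8 CPM, KO libraries 38.3 and 32.1 CPM. The libraries of both genotypes spread alike, and the log2 fold change was 0.01 (SE 0.10; 95% interval −0.21 to 0.23; edgeR, adjusted p = 0.987). The gene shares 361 exonic bases with the antisense gene Gm16156, and without a stated strand setting its count is uncertain by the reads from that stretch.
Slc12a7 encodes KCC4, a potassium-chloride cotransporter known from the inner ear and kidney (ENSMUSG00000017756, plus strand of chromosome 13, 73733094 to 73816754). It had 171 to 214 counts per library which is 11.2, 10.3 and 13.2 CPM for WT, 11.7 and 10.7 CPM for KO. Counting error alone amounts to 7.20% at this depth, and the log2 fold change of −0.05 (SE 0.14; 95% interval −0.36 to 0.26; edgeR, adjusted p = 0.957) has the widest interval of the 8.

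Slc12a9 encodes a distant relative of the cotransporters whose transport role is less settled (ENSMUSG00000037344, minus strand of chromosome 5, 137314558 to 137333597). WT libraries held 30.0, 33.0 and 28.6 CPM, and each KO library held 34.9 CPM. Both KO libraries lay above all WT libraries, and 12.9% of all tested genes showed the same separation. The means were 30.5 ± 2.26 CPM (SD, n = 3) and 34.9 ± 0.0127 CPM (SD, n = 2); counting error at this depth is 4.27%, so the close agreement of the KO pair is tighter than counting alone gives on average. The log2 fold change was 0.19 (SE 0.09; 95% interval 0.00066 to 0.38) and did not pass over all genes (edgeR, adjusted p = 0.657; DESeq2, adjusted p = 1.0). It was 0.25 without WT replicate 2 and 0.14 without WT replicate 3.

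Wnk1 encodes the broadly expressed WNK kinase at the head of the cascade (ENSMUSG00000045962, minus strand of chromosome 6, 119923969 to 120038672). WT libraries held 642.1, 586.0 and 568.6 CPM, KO libraries 606.4 and 577.3 CPM, with both KO libraries inside the WT range. Its log2 fold change was −0.02 (SE 0.07; 95% interval −0.17 to 0.13; edgeR, adjusted p = 0.967).
Stk39 encodes SPAK, which WNK kinases phosphorylate and which in turn phosphorylates NKCC1 and the KCCs (ENSMUSG00000027030, minus strand of chromosome 2, 68210445 to 68472268). WT libraries held 149.1, 137.3 and 139.4 CPM, KO libraries 149.5 and 139.3 CPM. Its spread was the smallest of the set, with a coefficient of variation of 4.42% in WT, and the log2 fold change was 0.02 (SE 0.06; 95% interval −0.12 to 0.17; edgeR, adjusted p = 0.944).
Oxsr1 encodes OSR1, the close relative of SPAK with the same substrates (ENSMUSG00000036737, minus strand of chromosome 9, 119238432 to 119322427). WT libraries held 144.6, 130.6 and 137.1 CPM, KO libraries 129.2 and 139.7 CPM, with a log2 fold change of −0.03 (SE 0.07; 95% interval −0.18 to 0.12; edgeR, adjusted p = 0.927). For these 3 kinases the intervals bound a KO level between 0.882 and 1.12 times that of WT.

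**Figure D3:**
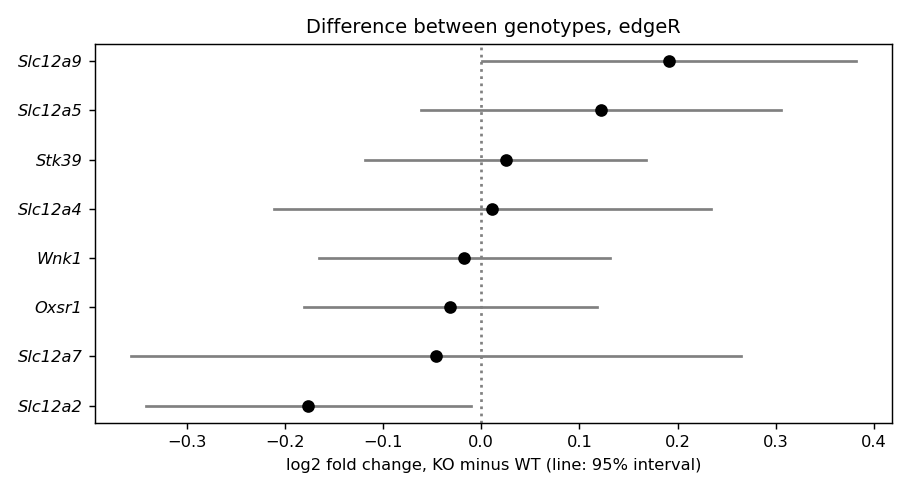
Log2 fold change of each gene, KO minus WT (horizontal axis), as a point with its 95% interval from edgeR; the dotted line marks no difference. The intervals of Slc12a2 and Slc12a9 lie just to either side of 0 before adjustment over all genes, and those of the other 6 genes include it.

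The ratio of KCC2 to NKCC1 transcripts is a customary index of chloride extrusion when measured in neurons. In whole cord it is not a value of neurons, since Slc12a2 is expressed in glia, oligodendrocyte precursors and vessels too. As a ratio within a library it does not depend on library scaling. Per kb it came to 2.62, 3.45 and 2.71 for WT, against 3.39 and 3.79 for KO. WT replicate 2 lay between the 2 KO libraries, and the other 2 WT libraries lay below both. The mean was 2.93 ± 0.455 in WT (SD, n = 3) and 3.59 ± 0.2803 in KO (SD, n = 2), a log2 difference of 0.30 or 1.23-fold. An exact two-sided permutation test gave p = 0.4 (adjusted over the 6 ratios computed, 0.720). In this test the smaller one-sided p is doubled, so 3 libraries against 2 cannot give less than 0.2. Without WT replicate 2 the log2 difference was 0.43 and the groups no longer overlapped (exact two-sided permutation test, p = 0.333, the smallest that 2 against 2 allow). Leaving out KO replicate 1 gave 0.38, and leaving out KO replicate 2 gave 0.22. With Slc12a4 and Slc12a7 added to Slc12a5, the ratio to Slc12a2 was 2.95, 3.81 and 3.03 in WT and 3.78 and 4.15 in KO, again overlapping at WT replicate 2. As given above, the neuron marker sum was higher in KO and the oligodendrocyte precursor sum lower, both without overlap. The oligodendrocyte, astrocyte and endothelial sums overlapped. The part of cell composition in these ratios was not tested.

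The ratio of Slc12a2 to 10 oligodendrocyte markers was the 1 of the 6 whose groups did not overlap. It was 0.389, 0.375 and 0.353 in WT and 0.343 and 0.327 in KO, a log2 difference of −0.15 (exact two-sided permutation test, p = 0.2, the smallest possible; adjusted over the 6 ratios, 0.720).
The kinase ratios overlapped. Stk39 to Oxsr1 was 1.11, 1.13 and 1.10 per kb for WT, 1.249 and 1.08 for KO, where the KO libraries lay on opposite sides of all WT libraries. Wnk1 to the sum of Stk39 and Oxsr1 was 0.493, 0.493 and 0.463 in WT and 0.489 and 0.466 in KO, with both KO libraries inside the WT range.

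**Figure D4:**
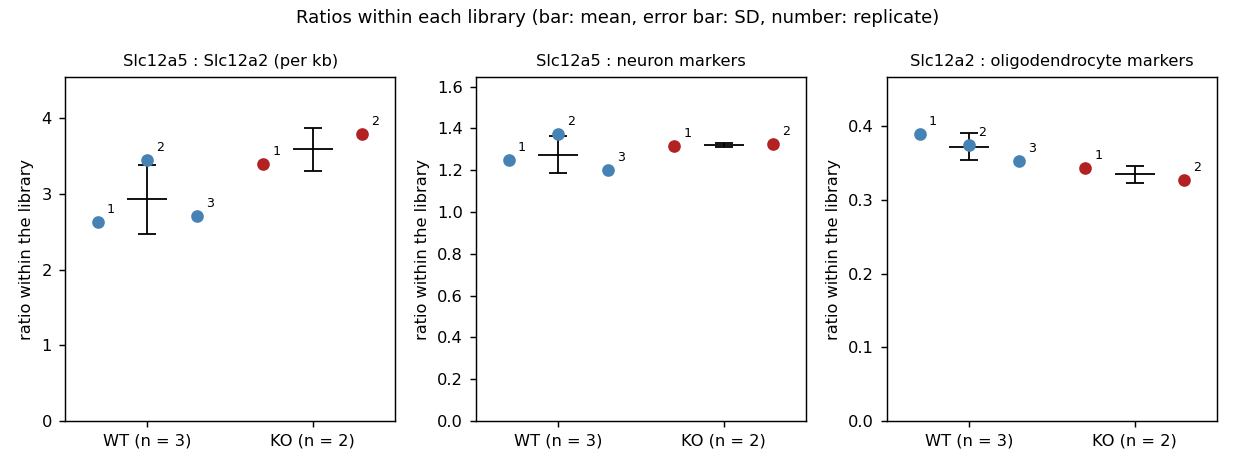
Ratios within each library (vertical axes, from 0) for Slc12a5 to Slc12a2 per kb, Slc12a5 to the geometric mean of 12 neuron markers, and Slc12a2 to that of 10 oligodendrocyte markers; points are libraries with their replicate number, bars are means and error bars SDs. For Slc12a5 to Slc12a2, WT replicate 2 at 3.45 lies between the KO libraries at 3.39 and 3.79; only the right panel shows groups that do not overlap.

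The other genes of the pathway were read from 5 lists, and edgeR called 0 genes over all of them at an adjusted p under 0.05; DESeq2 called 0 as well. Of their 68 tested genes, 7 had an unadjusted p under 0.05, and the groups did not overlap for 22, where 7.57% and 24.9% of all tested genes did so. Of the other SLC12 transporters, 3 of 4 were tested, all with positive log2 fold changes. The renal transporter gene Slc12a3 was at most 1.81 CPM in any library (log2 fold change 0.22, SE 0.29) and Slc12a8 at most 1.5 CPM (0.60, SE 0.35); the renal NKCC2 gene Slc12a1 did not pass the filter on low counts. Without KO replicate 2 the values of Slc12a3 and Slc12a8 were 0.12 and 0.32.

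Among 15 further genes of the WNK and SPAK cascade, 10 lay on the negative and 5 on the positive side, and the median log2 fold change was −0.07. Of all tested genes, 7819 lay on the negative and 8233 on the positive side. The groups did not overlap for 8, with 6 lower and 2 higher in KO, where 24.9% of all tested genes did not overlap. An unadjusted p under 0.05 was reached by 4, where 7.57% of all tested genes reached it. Cab39l, which encodes MO25-beta, a scaffold that activates SPAK and OSR1, had the smallest p of the list. WT libraries held 55.5, 56.1 and 55.4 CPM, KO libraries 44.9 and 46.0 CPM. The means were 55.7 ± 0.380 CPM (SD, n = 3) and 45.5 ± 0.786 CPM (SD, n = 2). Both SDs were smaller than the counting error of 1 library, which was 1.66 to 1.85 CPM, so they understate the error of these means. The log2 fold change was −0.29 (SE 0.06; 95% interval −0.44 to −0.15), which did not pass over all genes (edgeR, adjusted p = 0.2997; DESeq2, adjusted p = 0.373), and it stayed between −0.31 and −0.28 with each library left out in turn. Its more abundant paralogue Cab39 (MO25-alpha) averaged 285.6 ± 13.7 CPM for WT, 279.9 ± 3.99 CPM for KO (−0.03, SE 0.06).

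Sgk1, a hormone-induced kinase gene that acts on sodium and chloride transport in kidney, had 228.1, 239.3 and 157.4 CPM for WT, 50.7 and 132.8 CPM for KO. Its log2 fold change of −1.18 (SE 0.31; edgeR, adjusted p = 0.445) was the lowest of the 5 lists, and the KO libraries lay far apart. It passed without KO replicate 2 (−2.04; edgeR, adjusted p = 0.0429) and without the low-count filter (adjusted p = 0.00020), but not without KO replicate 1 (−0.65). The abundant ubiquitin ligase gene Nedd4 (572.9 ± 32.1 CPM in WT, 544.5 ± 7.65 in KO; −0.07, SE 0.06) overlapped. For Ppp1cb, the gene of a catalytic subunit of protein phosphatase 1, which dephosphorylates the cotransporters, the values were 282.3 ± 16.6 and 257.3 ± 2.45 CPM (−0.13, SE 0.06; edgeR, adjusted p = 0.682).

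Of 15 partners and transcriptional regulators of KCC2, 14 were tested, 10 on the positive and 4 on the negative side, and the median log2 fold change was 0.05. Pacsin1, whose protein binds KCC2 and is a negative regulator of it, had 399.3, 395.8 and 334.3 CPM for WT, 424.7 and 418.7 CPM for KO (0.16, SE 0.08; edgeR, adjusted p = 0.682). Neto2, an auxiliary subunit of kainate receptors that also binds KCC2, had 38.4, 37.9 and 40.6 CPM for WT, 35.6 and 30.8 CPM for KO (−0.23, SE 0.09; edgeR, adjusted p = 0.621). Neither gene overlapped between the groups, and neither passed. Both values depended on 1 library: Pacsin1 was at 0.081 without WT replicate 3, and Neto2 at −0.13 without KO replicate 2. The most abundant of the list were the brain creatine kinase gene Ckb (1663 ± 79.9 CPM in WT, 1793 ± 150.3 in KO), the cytoskeletal linker gene Epb41l1 (751.9 ± 67.6 and 809.7 ± 34.6) and the BDNF receptor gene Ntrk2 (466.9 ± 7.75 and 450.9 ± 15.9), each overlapping. Egr4, a factor that drives KCC2 during development, did not pass the filter on low counts.

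Of 21 chloride channel and bicarbonate exchanger genes, 20 were tested, 12 with positive and 8 with negative values, a median of 0.04 and a range from −0.13 to 0.15. Clcn2, an inwardly rectifying chloride channel gene, had 66.2, 64.8 and 62.3 CPM for WT, 72.0 and 71.1 CPM for KO (0.15, SE 0.06; edgeR, adjusted p = 0.644), without overlap. The chloride-bicarbonate exchanger gene Slc4a3 overlapped (0.13, SE 0.07). The most abundant of this list, Ttyh1 (−0.0063, SE 0.07), the carbonic anhydrase gene Car2 (−0.09, SE 0.06) and the bicarbonate cotransporter gene Slc4a4 (0.03, SE 0.06), overlapped too.
The GABA-A and glycine receptor subunits, through whose channels the chloride flows, were split evenly, with 8 positive and 8 negative of 16 and a median of 0.0020. Glra1, the adult glycine receptor alpha subunit, had 102.8, 104.4 and 85.0 CPM for WT, 131.4 and 104.5 CPM for KO. The log2 fold change was 0.28 (SE 0.11; edgeR, adjusted p = 0.640). Leaving out KO replicate 1 gave 0.10, leaving out KO replicate 2 gave 0.43, and neither passed. Its partner Glrb, the most abundant subunit gene at 355.5 ± 34.4 CPM in WT and 351.1 ± 12.7 in KO, had a log2 fold change of −0.02 (SE 0.08). Gabra2 had −0.18 (SE 0.09), and Gabra3 had −0.03 (SE 0.07).

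**Figure D5:**
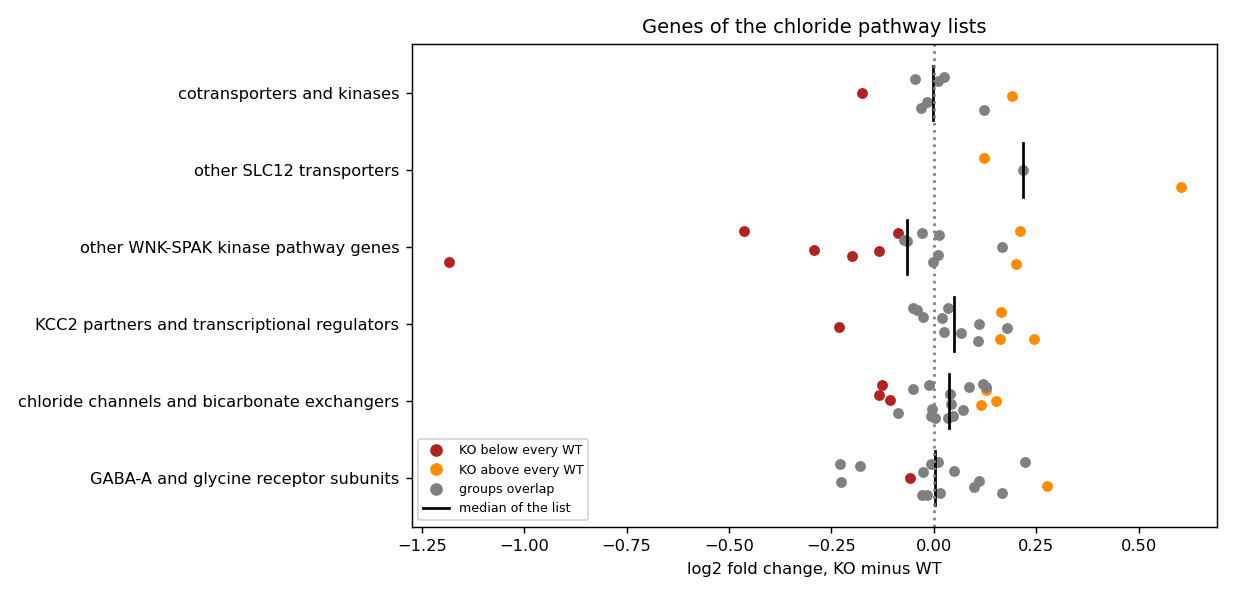
Log2 fold change, KO minus WT (horizontal axis), of each tested gene of the 8 cotransporter and kinase genes and the 5 other lists (rows); colours show whether both KO libraries lay below or above every WT library, and the black bar is the list's median. The points cluster within 0.3 of 0 except Sgk1 at −1.18, Sgk3 at −0.46 and Slc12a8 at 0.60, none of which passed the test.

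The genes with the profile most like that of Slc12a5 over the 5 libraries were Zdhhc8, Hectd4 and Mical2, out of 10446 tested genes with a mean of at least 10 CPM. Likeness was the root mean square distance between log2 CPM values centred on each gene's mean, which was 0.0098, 0.0110 and 0.0127. Hectd4, for example, had 235.3, 270.7 and 215.6 CPM for WT, 258.9 and 269.2 CPM for KO, highest in WT replicate 2 and lowest in WT replicate 3 as Slc12a5 was. For Slc12a2 they were B3galt5, Hapln1 and Zmat5, at distances of 0.0156, 0.0169 and 0.0208. B3galt5 had 287.0, 243.0 and 249.5 CPM for WT, 236.7 and 216.7 CPM for KO, again highest in WT replicate 1 and lowest in KO replicate 2. With so many genes and 5 libraries, close profiles are a description only.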

How the data were processed

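The authors deposited raw counts of reads per gene in 1 table, with no normalization. Per the submitters' processing notes, reads were handled with HTSeq, STAR 2.5.2b, Trimmomatic and cutadapt on the GRCm38 build. The libraries were made with a stranded mRNA kit, per the labels' protocols, while the annotation release and strand setting are not stated in those sources. Groups came from the titles. No label says that libraries came from separate litters, and p-values measure the spread between these libraries. How much of that spread lay between animals and how much was technical was not tested. Counts within a group differed beyond sampling noise (chi-square per degree of freedom 4.01 to 7.47).

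Symbols, coordinates and exon lengths came from GENCODE M21 (GRCm38), which matched 55230 of 55471 identifiers, and promoter sequences from RefSeq (GRCm38.p6). Genes were filtered with filterByExpr (minimum count 10, minimum total 15), leaving 16052, and tested with edgeR 4.0.16 under R 4.3.3 (quasi-likelihood F test, TMM, no covariates), adjusted by Benjamini-Hochberg with a threshold of 0.05. Standard errors were the log2 fold change over the root of F. DESeq2 1.42.0 and limma 3.58.1 served as alternatives. Ratios used counts plus 0.5 and scipy 1.17.1. In simulated counts for 15876 genes, 16 of 136 calls were unchanged genes.

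The 8 genes and all lists were chosen with earlier results of these data known. From each pathway list the text names the 3 most abundant genes and the 2 of smallest p; Slc12a1, Sgk3, Egr4, Scn10a, Ttr and Otx2 were added after their values were seen. A few genes chosen this way are not reported here. Likeness used log2 CPM plus 0.5.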

Additional observations from a re-analysis of the deposited data

How the results depend on the processing

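None of the 8 genes was called under the 11 alternatives to the edgeR fit, and Slc12a2, Slc12a5 and Slc12a9 kept their direction in all of them. The log2 fold changes with each library left out in turn ran from −0.24 to −0.11 for Slc12a2, 0.05 to 0.21 for Slc12a5, 0.14 to 0.25 for Slc12a9, −0.12 to 0.13 for Slc12a4, −0.13 to 0.052 for Slc12a7, −0.057 to 0.036 for Wnk1, −0.030 to 0.074 for Stk39 and −0.091 to 0.021 for Oxsr1, so the last 5 have no settled direction. The calls over all genes were 3 in the fit reported, 6 with DESeq2 size factors, 96 without the low-count filter, 12 with robust dispersion, 40 with DESeq2, 1 with limma-voom and 0 to 58 with a library left out. The cause was not tested.

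The titles give replicate numbers 1 and 2 to both genotypes, but the labels tie them to nothing. Deviations of same-numbered libraries from their group means had correlations across genes of 0.058 and 0.0020. The deviations of 2 KO libraries mirror each other, so these correlations can hardly show whether the numbers mark a pairing. With the replicate number as a block edgeR called 25 genes, 1 of them in the WNK and SPAK list (Sgk1, −1.47, adjusted p = 0.0297). Under the block Slc12a4 stood at −0.056, Slc12a7 at 0.055 and Gabra3 at 0.0062, opposite to the values reported. The WNK and SPAK list also had 1 call, Sgk1, without the filter (edgeR, adjusted p = 0.00020). It had 0 calls with DESeq2, limma-voom, robust dispersion or DESeq2 size factors, and 0 with any WT library left out. Values that turned sign with a library left out were those of Cab39 (−0.064 to 0.0045), Ttyh1 (−0.051 to 0.047), Slc4a4 (−0.00016 to 0.062), Glrb (−0.072 to 0.063) and Gabra3 (−0.099 to 0.036).

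Of the ratios, Slc12a5 to Slc12a2 ran from 0.22 to 0.43 (log2, KO minus WT) with a library left out, Slc12a5 to neuron markers from 0.012 to 0.11, Slc12a2 to oligodendrocyte markers from −0.19 to −0.12, and Stk39 to Oxsr1 (−0.051 to 0.16) and Wnk1 to summed Stk39 and Oxsr1 (−0.049 to 0.019) turned sign. With the replicate block, which leaves out WT replicate 3, the first was 0.25 and Slc12a5 to neuron markers 0.012. With 1 KO library left, ratios are values with no test, and the edgeR fits assume that it varies like WT.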
